A study of Mus musculus with 20 samples.

Results

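The CC chemokines measured here are 10 genes, Ccl2, Ccl3, Ccl4, Ccl5, Ccl6, Ccl7, Ccl9, Ccl12, Ccl22 and Ccl24, out of 24342 genes with a symbol in the count table. They were taken by symbol, each from its RefSeq transcript, and all 10 were found with 1 transcript each. Messenger RNA was sequenced from macrophages grown out of the bone marrow of C57BL/6 mice for 7 to 8 days in 15% L929-conditioned medium, a source of the growth factor M-CSF. During that growth the cells received 1 µM SGC0946, an inhibitor of the histone H3 lysine methyltransferase DOT1L, or its solvent DMSO. The 6 groups were SGC0946+LPS and DMSO+LPS (10 ng/mL lipopolysaccharide for 3 h, 3 libraries each), SGC0946+GW3965 and DMSO+GW3965 (2 µM of this agonist of the liver X receptors for 17 h, 3 libraries each), and unstimulated SGC0946 and DMSO cells (4 libraries each). SGC0946 was present throughout the growth of the cells, so an effect on how the macrophages formed and an effect on the formed macrophages cannot be told apart.

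Chemokines are small secreted proteins that steer leukocytes through G protein-coupled receptors, and the CC class is named for a pair of adjacent cysteines near the amino terminus. Macrophages release many of them when lipopolysaccharide engages TLR4, which signals through MyD88 to NF-kB and through TRIF to interferon factors. Ccl2, Ccl7 and Ccl12 attract monocytes through CCR2, and Ccl3 and Ccl5 act on CCR1. Ccl4 is a close relative of Ccl3. Ccl6 and Ccl9 are mouse chemokines of myeloid cells that act on CCR1, Ccl22 is a ligand of CCR4, and Ccl24 attracts eosinophils through CCR3.

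Of the 10 genes, 8 lie in a pair of stretches of mouse chromosome 11. In the GENCODE annotation of GRCm38 (mm10), Ccl2 (chr11:82035571-82037453), Ccl7 (chr11:82045712-82047525) and Ccl12 (chr11:82101845-82103400) follow each other on the plus strand. Ccl5 (chr11:83525778-83530518), Ccl9 (chr11:83572919-83578636), Ccl6 (chr11:83587882-83593087) and Ccl3 (chr11:83647844-83649355) lie on the minus strand beside Ccl4 (chr11:83662584-83664683, plus strand). Ccl22 (chr8:94745590-94751699, plus strand) and Ccl24 (chr5:135569937-135573049, minus strand) lie apart. Ccl6 and Ccl9 have 4 exons and the other members 3, and none shares exon sequence with another annotated gene. Of the 50-base windows of each transcript, 1.995% in Ccl9 also occurred in transcripts of other genes, 463 in number, and no window of the other 9 members did (reads were 50 bases long, per the labels).

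RefSeq's promoter table for GRCm38.p6 held the 250 bases before RefSeq's transcript start for 5 members (Ccl3, Ccl6, Ccl9, Ccl12 and Ccl22). That start is the one given above for Ccl6, Ccl9 and Ccl12, but lies 94 bases inside the gene as given above for Ccl22 and 23 bases before it for Ccl3. The neighbours Ccl9 and Ccl6 are shown because both were abundant without stimulus while LPS raised Ccl9 far more than Ccl6, and Ccl12 is shown as a gene that was nearly silent until LPS. Each is written 5′ to 3′ on the strand of its gene, and capitals mark motif matches.
Ccl12: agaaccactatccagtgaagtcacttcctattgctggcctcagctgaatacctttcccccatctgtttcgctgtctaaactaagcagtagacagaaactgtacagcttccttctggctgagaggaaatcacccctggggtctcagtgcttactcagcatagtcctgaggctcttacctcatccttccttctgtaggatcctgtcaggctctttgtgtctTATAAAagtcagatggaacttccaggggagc
Ccl9: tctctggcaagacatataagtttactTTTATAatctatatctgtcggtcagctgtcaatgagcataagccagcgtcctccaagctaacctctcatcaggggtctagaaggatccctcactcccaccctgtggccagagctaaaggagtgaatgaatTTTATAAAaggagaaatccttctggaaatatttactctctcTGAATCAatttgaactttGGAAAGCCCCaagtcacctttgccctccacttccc
Ccl6: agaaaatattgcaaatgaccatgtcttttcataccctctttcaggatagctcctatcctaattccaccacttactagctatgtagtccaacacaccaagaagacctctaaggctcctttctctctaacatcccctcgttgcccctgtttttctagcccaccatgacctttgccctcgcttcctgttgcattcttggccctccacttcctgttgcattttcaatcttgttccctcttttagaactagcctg
The stretches are chr11:82101595-82101844 (plus strand) for Ccl12, chr11:83578637-83578886 (minus strand) for Ccl9 and chr11:83593088-83593337 (minus strand) for Ccl6. Both strands were searched for the NF-kB consensus, the AP-1 motif TGANTCA, the interferon-stimulated response element, the STAT6 motif, the PU.1 motif GAGGAAG and the TATA box TATAAA. Ccl12 held a TATA box 31 to 26 bases before the start. Ccl9 held an NF-kB match on the opposite strand 35 to 26 bases before the start and an AP-1 match 53 to 47 bases before it. Ccl9 also held TATA box matches on the opposite strand at 224 to 219 and 94 to 89 bases, the second overlapping a match on its own strand at 92 to 87 bases. In the stretches of Ccl6, Ccl3 and Ccl22 no letters of these motifs were found. Among 32851 promoter stretches of the same length, 3.90% held the NF-kB consensus, 6.75% the AP-1 motif, 2.98% the interferon element, 5.85% the STAT6 motif, 10.6% the PU.1 motif and 12.4% the TATA box.

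The libraries held 8.17 to 13.33 M counts over genes with a symbol. A column of the deposited sample table ties each replicate number to a mouse, so same-numbered libraries of different groups came from the same animal. Libraries within a group came from different animals. The main test takes all libraries as independent and does not use the pairing, which an alternative fit with the mouse as a block does. All 8 macrophage markers were detected, with Lyz2 at 6546 to 11059 CPM (counts scaled to library size) and Csf1r at 1520 to 2548 CPM. The 12 granulocyte and precursor markers, of which 5 passed the filter on low counts, summed to 2.08 to 8.27 CPM in SGC0946 and 31.96 to 42.5 CPM in DMSO libraries, to 15.98 to 21.05 CPM in SGC0946+LPS and 55.1 to 65.6 CPM in DMSO+LPS libraries, and to 3.22 to 5.95 CPM in SGC0946+GW3965 and 28.3 to 41.7 CPM in DMSO+GW3965 libraries. The 8 dendritic cell markers, of which 4 passed, summed to 21.9 to 32.9 CPM in SGC0946 and 12.2 to 19.7 CPM in DMSO libraries, to 28.7 to 41.8 CPM in SGC0946+LPS and 17.6 to 26.6 CPM in DMSO+LPS libraries, and to 17.3 to 23.2 CPM in SGC0946+GW3965 and 10.52 to 18.9 CPM in DMSO+GW3965 libraries. Summed markers of stromal, erythroid and mast cells, of B cells and of T and NK lineages stayed at or under 6.27 CPM in every library, and Pax5, Gzma, Fcer1a, Epx, Hba-a1 and Hbb-bs were at 0 throughout. Replicates 1 to 3 of the DMSO group and the 3 DMSO+GW3965 libraries, 6 in all, are titled as reanalyzed, which cannot be told apart from the inhibitor in the GW3965 state and only in part in unstimulated cells. SGC0946 replicates 2 and 4 and SGC0946+LPS replicate 2 stood apart from the other libraries in earlier results, and values without them are given where they change a call.

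Ccl6 and Ccl9 were the most abundant CC chemokine transcripts of unstimulated macrophages, and Ccl3, Ccl5 and Ccl4 were the most abundant after LPS. Levels of different genes are compared per transcript length, in the deposited RPKM (read counts divided by transcript length and library total), which are not scaled for composition. In unstimulated cells Ccl6 stood at 380 ± 24.4 RPKM with SGC0946 and 311 ± 18.9 RPKM with DMSO (SD, n = 4 each). Ccl9 followed at 241 ± 20.2 RPKM with SGC0946 and 230 ± 7.78 RPKM with DMSO, and Ccl3 at 58.6 ± 11.1 RPKM with SGC0946 and 75.3 ± 3.47 RPKM with DMSO. Below them in DMSO cells came Ccl4, Ccl2, Ccl7, Ccl5 and Ccl12 in that order, with mean levels of 42.3, 22.8, 14.7, 9.92 and 4.53 RPKM, and neighbours in this order did not overlap between libraries. Ccl24 and Ccl22 were lowest, at 0.327 ± 0.146 and 0.234 ± 0.201 RPKM in DMSO cells, and their libraries overlapped. In bulk RNA, fewer cells of a type and less RNA per cell cannot be told apart.

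After LPS, Ccl3 led at 1809 ± 234 RPKM in SGC0946+LPS and 2131 ± 83.7 RPKM in DMSO+LPS libraries (SD, n = 3 each). Ccl5 followed at 1746 ± 378 RPKM in SGC0946+LPS and 1860 ± 13.6 RPKM in DMSO+LPS libraries, and Ccl4 at 1405 ± 162 RPKM in SGC0946+LPS and 1754 ± 97.7 RPKM in DMSO+LPS libraries. Ccl3 and Ccl5 overlapped in the SGC0946+LPS libraries but not in the DMSO+LPS libraries, where Ccl3 was higher. Ccl2, Ccl7 and Ccl9 came next with means of 829, 827 and 794 RPKM in SGC0946+LPS libraries, where all 3 overlapped, and 1398, 1261 and 886 RPKM in DMSO+LPS libraries, where only Ccl2 and Ccl7 overlapped. The 10 genes together took 0.901% ± 0.0652 of counts in SGC0946+LPS and 1.03% ± 0.0601 in DMSO+LPS libraries. In unstimulated cells they took 0.159% ± 0.00934 with SGC0946 and 0.145% ± 0.00324 with DMSO.

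**Figure D1:**
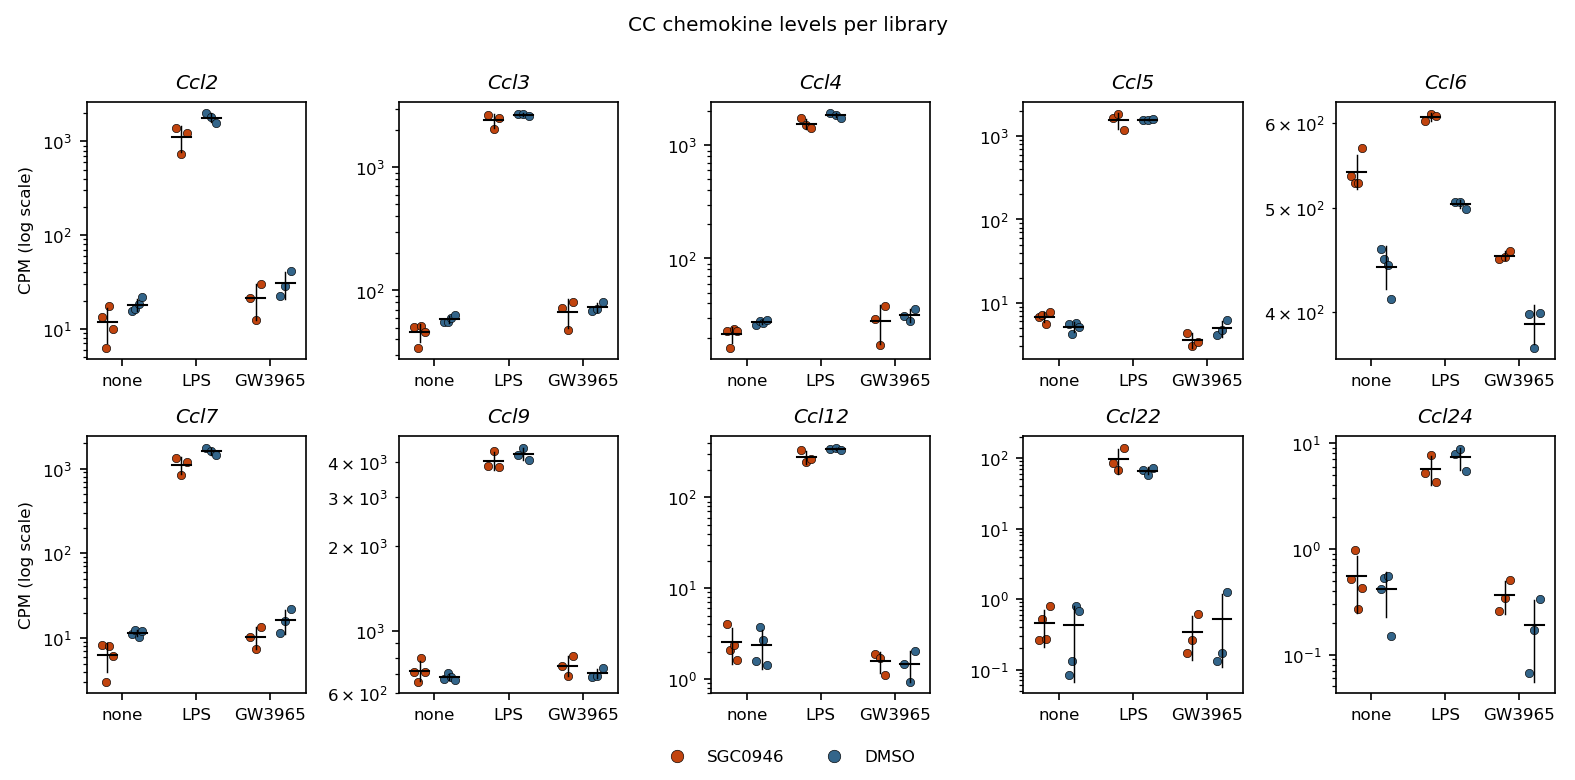
Level of each CC chemokine in each library, in CPM scaled by the trimmed mean of M values on a log axis, for SGC0946 (orange, left) and DMSO (blue, right) without stimulus, with LPS and with GW3965. Horizontal bars are means and vertical lines 1 SD, cut short at the lower end where 1 SD would reach well below the lowest library. Ccl6 is higher with SGC0946 in every library of each state, while Ccl2 and Ccl7 sit lower on average with SGC0946 in all 3 states.

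LPS raised 9 of the 10 CC chemokines by at least 2.49 on the log2 scale in both arms under TMM scaling, and Ccl6 by no more than 0.20. With edgeR's quasi-likelihood test over 12013 genes and Benjamini-Hochberg adjustment, all 10 members rose in each arm, against 35.8% of all genes rising and 38.8% falling (74.6% called) in SGC0946 cells, and 35.4% rising and 38.7% falling (74.1% called) in DMSO cells. Those shares are 4296 genes rising and 4666 falling in SGC0946 cells and 4253 rising and 4650 falling in DMSO cells; with library totals alone 1977 rose and 8699 fell in SGC0946 cells, and 1980 rose and 8674 fell in DMSO cells, while 9 members rose and Ccl6 fell in each arm. Ccl22 and Ccl24 passed the filter on low counts only through their LPS libraries, so a rise was built into their passing. The median log2 fold change of the members was 6.39 in SGC0946 cells and 6.35 in DMSO cells, while that of all genes tested was -0.07 in both arms. The unstimulated DMSO libraries include 3 titled as reanalyzed and the LPS libraries none, so that word goes with the stimulus in the DMSO arm.

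Among the CCR2 ligands, Ccl2 reached 1397, 736 and 1238 CPM in SGC0946+LPS replicates 1 to 3, against 13.5, 6.33, 17.4 and 9.91 CPM in SGC0946 replicates 1 to 4. In DMSO+LPS replicates 1 to 3 Ccl2 stood at 1989, 1806 and 1590 CPM, against 15.5, 16.5, 18.6 and 21.8 CPM in the DMSO libraries. These are log2 fold changes of 6.59 ± 0.30 in SGC0946 cells and 6.63 ± 0.30 in DMSO cells (± 1 SE). Ccl7 rose by 7.46 ± 0.25 in SGC0946 and 7.12 ± 0.23 in DMSO cells. Ccl12 stood at 332, 244 and 267 CPM in SGC0946+LPS and 336, 353 and 332 CPM in DMSO+LPS libraries, against 1.43 to 4.08 CPM in all 8 unstimulated libraries. It rose by 6.81 ± 0.18 in SGC0946 and 7.12 ± 0.18 in DMSO cells. In each of these 3 genes every LPS library lay far above every unstimulated library.

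Ccl5, which attracts T cells and monocytes, had the largest fitted rise of the 10 in both arms of the main test. With the mouse as a block, Ccl22 came out above Ccl5 in SGC0946 cells (7.97 and 7.86). Ccl5 stood at 1645, 1823 and 1192 CPM in SGC0946+LPS libraries, against 6.69, 7.08, 5.60 and 7.84 CPM in SGC0946 libraries, a rise of 7.82 ± 0.15. In DMSO cells it stood at 1571, 1553 and 1586 CPM with LPS, against 5.62, 4.18, 5.65 and 5.18 CPM without, a rise of 8.26 ± 0.16. By size of log2 fold change Ccl5 ranked 54 of 12013 genes in the SGC0946 arm and 34 in the DMSO arm. Ccl3 rose by 5.72 ± 0.15 in SGC0946 and 5.52 ± 0.15 in DMSO cells, and Ccl4 by 6.18 ± 0.18 in SGC0946 and 6.07 ± 0.18 in DMSO cells. The edgeR adjusted p-values of Ccl2, Ccl3, Ccl4, Ccl5, Ccl7 and Ccl12 were at most 1.19e-14 in either arm.

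Ccl9, already abundant before LPS, rose by 2.49 ± 0.07 in SGC0946 cells and 2.65 ± 0.07 in DMSO cells (1.75 and 1.92 with library totals alone). It stood at 3880, 4389 and 3846 CPM in SGC0946+LPS libraries, against 711, 657, 799 and 711 CPM in SGC0946 libraries. Its neighbour Ccl6 stood at 602, 611 and 609 CPM in SGC0946+LPS libraries, against 536, 528, 527 and 569 CPM in SGC0946 libraries. In the DMSO arm Ccl6 stood at 506, 507 and 499 CPM with LPS, against 458, 448, 443 and 411 CPM without. The groups did not overlap in either arm, and the rise was 0.17 ± 0.05 in SGC0946 cells (edgeR adjusted p = 0.0038) and 0.20 ± 0.05 in DMSO cells (edgeR adjusted p = 0.00125). This direction depends on the scaling: with library totals alone Ccl6 fell by 0.57 in SGC0946 and by 0.53 in DMSO cells (edgeR adjusted p = 5.41e-10 and 1.61e-09), while the median of all genes moved to -0.81 in the SGC0946 arm and -0.80 in the DMSO arm. Without a filter on low counts the rise in SGC0946 cells was 0.14 and did not pass (edgeR adjusted p = 0.0563).

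Ccl22 and Ccl24, chemokines known for their rise in alternatively activated macrophages, were close to the lowest counts measurable before LPS. Ccl22 had 3 to 11 reads per library in SGC0946 and 1 to 10 reads in DMSO cells, against 562 to 829 reads in SGC0946+LPS and 503 to 543 reads in DMSO+LPS libraries. Its fitted rise was 7.64 ± 0.36 in SGC0946 and 7.28 ± 0.38 in DMSO cells. Ccl24 stood at 5.25, 7.70 and 4.27 CPM in SGC0946+LPS libraries and at 7.91, 8.73 and 5.40 CPM in DMSO+LPS libraries, with fitted rises of 3.36 ± 0.34 in SGC0946 and 4.12 ± 0.34 in DMSO cells. Both genes had counts of 3 or fewer in some unstimulated libraries, so the size of these fitted values rests partly on the prior count.

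**Figure D2:**
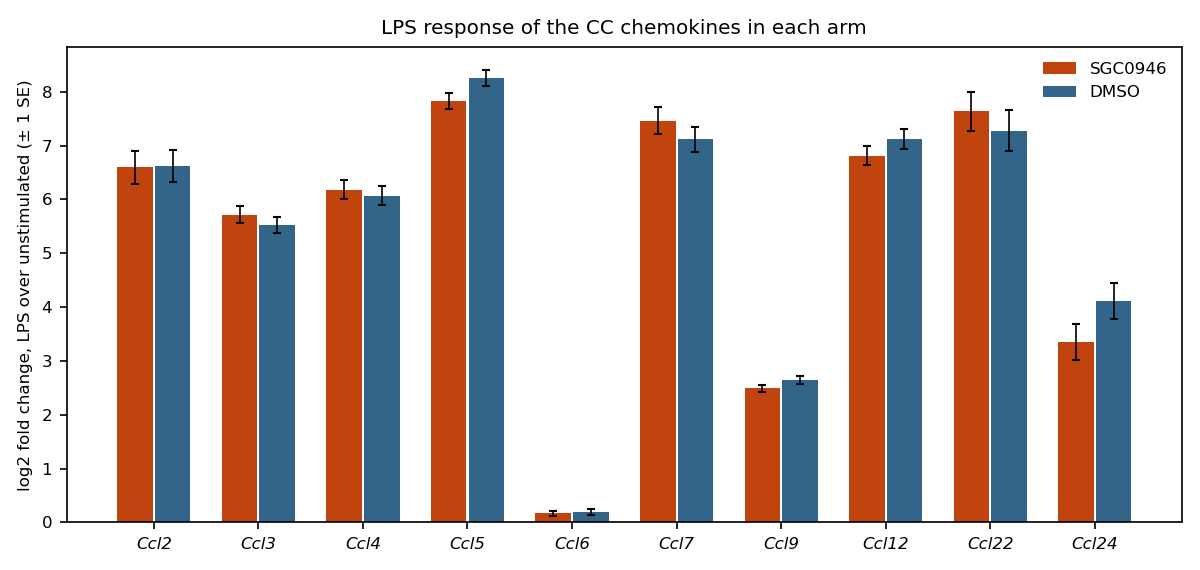
Response of each CC chemokine to LPS as a log2 fold change over unstimulated cells, with SGC0946 (orange) left of DMSO (blue); error bars are 1 SE. Ccl5 has the tallest bars at 7.82 and 8.26, Ccl9 stands at 2.49 and 2.65, and Ccl6 at 0.17 and 0.20.

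The size of the LPS response did not pass the test for a difference between the arms in any member. Over all genes 1 of 12013 was called for this difference (0.00832%), with 835 genes at an unadjusted p under 0.05, and DESeq2 called 33 genes and no member. Apart from the sparsely read Ccl24 (-0.76 ± 0.54), the largest difference was that of Ccl5, a smaller rise with SGC0946 by -0.43 ± 0.21 (95% interval -0.86 to 0.00017, edgeR adjusted p = 0.718). Ccl7 differed by 0.35 ± 0.32 (-0.32 to 1.01), Ccl2 by -0.04 ± 0.39 (-0.85 to 0.78) and Ccl12 by -0.31 ± 0.34 (-1.01 to 0.39). For Ccl3 the difference was 0.20 ± 0.19 (-0.20 to 0.60), for Ccl4 0.11 ± 0.22 (-0.35 to 0.58) and for Ccl9 -0.16 ± 0.10 (-0.36 to 0.05). For Ccl6 the difference was -0.02 ± 0.07 (-0.17 to 0.12). That interval did not reach the Ccl6 differences between the arms of 0.30 in unstimulated cells and 0.27 after LPS. The other intervals given here leave room for differences of the size seen between the arms at a single state.

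The main test of SGC0946 against DMSO, which does not pair libraries by mouse, called 1 or 2 of the 10 CC chemokines in each state. In unstimulated cells Ccl6 rose and Ccl7 fell, and after LPS and after GW3965 only Ccl6 passed. That is 2 of 10 members in unstimulated cells against 8.72% of all genes called (4.55% higher, 4.18% lower), 1 of 10 after LPS against 7.13% (3.86% higher, 3.26% lower), and 1 of 10 after GW3965 against 3.64% (2.24% higher, 1.40% lower). The members' median log2 fold change was 0.05 in unstimulated cells, -0.20 after LPS and -0.15 after GW3965, beside -0.00448, -0.00446 and 0.000745 for all genes tested. With SGC0946 the libraries lay wholly below DMSO for Ccl3, Ccl4 and Ccl7 in unstimulated cells and for Ccl2, Ccl4, Ccl7 and Ccl12 after LPS. They lay wholly above DMSO for Ccl6 in all 3 states. How many of all genes separated in this way was not counted, so these separations are a description only. With the mouse as a block, Ccl3 also passed in unstimulated cells, and Ccl2, Ccl7 and Ccl22 also passed after LPS. The shares of all genes above belong to the main test and not to that fit. In all 3 comparisons the 5 granulocyte markers tested fell, at the summed levels given above, and their part in these results was not tested.

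**Figure D3:**
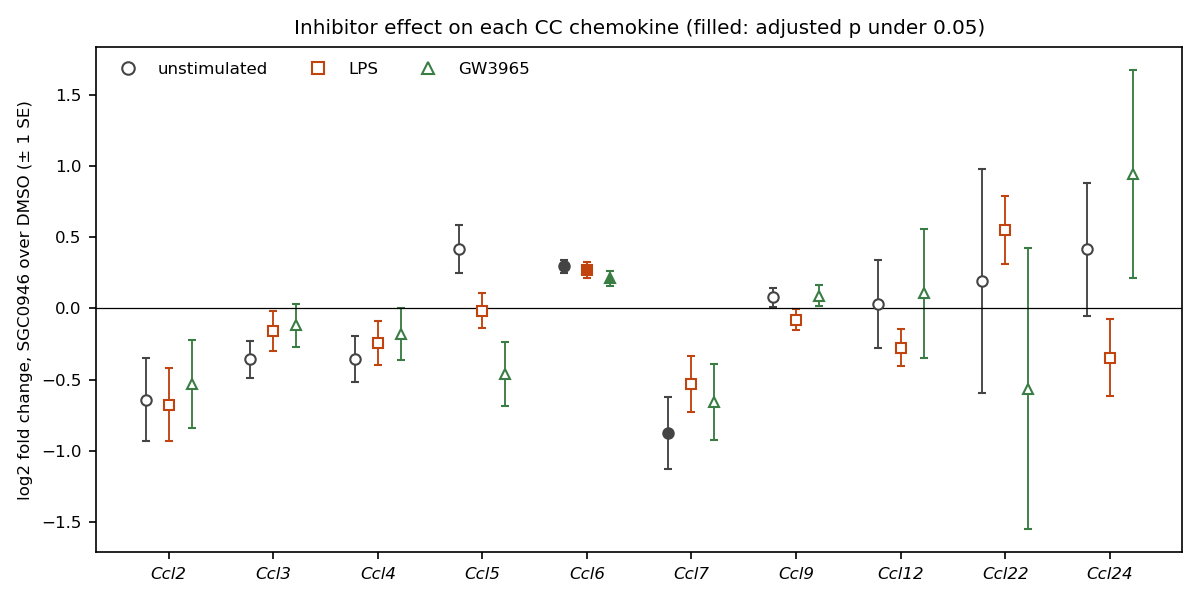
Log2 fold change of SGC0946 over DMSO for each CC chemokine in unstimulated (circles), LPS (squares) and GW3965 (triangles) cells; error bars are 1 SE and filled symbols passed an adjusted p of 0.05. Ccl6 is filled in all 3 states at 0.30, 0.27 and 0.21, and Ccl7 in unstimulated cells at -0.88.

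Ccl7 was lower with SGC0946. In unstimulated cells it stood at 8.25, 3.06, 8.03 and 6.20 CPM in SGC0946 replicates 1 to 4, against 11.2, 12.3, 10.4 and 12.2 CPM in DMSO replicates 1 to 4. The groups did not overlap, and SGC0946 replicate 2 was the lowest library. The mean was 6.39 ± 2.40 CPM with SGC0946 and 11.5 ± 0.881 CPM with DMSO (SD, n = 4 each), 1.84-fold lower with SGC0946, a log2 fold change of -0.88 ± 0.25 (edgeR adjusted p = 0.0329). The call was lost without SGC0946 replicate 2 (-0.63, adjusted p = 0.118), without SGC0946 replicate 4 (-0.87, adjusted p = 0.0827), without DMSO replicates 1, 2 or 4 (-0.89, -0.84 and -0.85; adjusted p = 0.0582, 0.0778 and 0.0795), without the libraries that stood apart (-0.51, 0.285), without the reanalyzed libraries (-0.95, 0.303) and without mouse 2 (-0.60, 0.101).

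After LPS, Ccl7 stood at 1322, 834 and 1180 CPM with SGC0946 and 1760, 1625 and 1431 CPM with DMSO. The groups again did not overlap, and the log2 fold change of -0.53 ± 0.20 did not pass (edgeR adjusted p = 0.112). With the mouse as a block in the model it was -0.56 and passed (edgeR adjusted p = 0.0324). After GW3965 it stood at 10.4, 7.42 and 13.4 CPM with SGC0946 and 11.5, 15.8 and 21.96 CPM with DMSO, which overlapped (-0.66 ± 0.27, edgeR adjusted p = 0.207).

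Ccl2, the main monocyte attractant of the family, ran below DMSO in the same way without passing in unstimulated cells. Its means were 11.8 ± 4.75 CPM with SGC0946 and 18.1 ± 2.76 CPM with DMSO (SD, n = 4 each), a log2 fold change of -0.64 ± 0.29 (edgeR adjusted p = 0.188), and the libraries overlapped. After LPS it averaged 1124 ± 345 CPM with SGC0946 and 1795 ± 200 CPM with DMSO (SD, n = 3 each), without overlap (-0.68 ± 0.26, edgeR adjusted p = 0.123). With the mouse as a block the value after LPS was -0.73 and passed (edgeR adjusted p = 0.0195). After GW3965 Ccl2 stood at 21.4, 12.6 and 30.4 CPM with SGC0946 and 22.6, 28.5 and 41.8 CPM with DMSO (-0.53 ± 0.31, edgeR adjusted p = 0.414). Ccl12, the mouse monocyte attractant beside them on the chromosome, differed by 0.03 ± 0.31 in unstimulated cells, by -0.28 ± 0.13 after LPS and by 0.11 ± 0.45 after GW3965, and passed in none of the 3 (edgeR adjusted p = 0.968, 0.221 and 0.945).

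Compared within each mouse, Ccl2 and Ccl7 were lower with SGC0946 in all 4 mice without stimulus, in all 3 after LPS and in all 3 after GW3965. The same mice supplied the 3 states, so these are not independent counts. For Ccl2 the same-mouse log2 ratio was -1.38 in mouse 2 and -1.14 in mouse 4 without stimulus, against -0.21 in mouse 1 and -0.10 in mouse 3. In mouse 2 it was -1.29 after LPS and -1.18 after GW3965, while mice 1 and 3 lay at -0.51 and -0.36 after LPS and at -0.08 and -0.46 after GW3965. For Ccl7 mouse 2 stood at -2.01, -0.96 and -1.09 in the 3 states. The library of mouse 2 was the lowest of the SGC0946 arm in 3 of 3 states for Ccl2, Ccl3 and Ccl7 and in 2 of 3 for Ccl4, whereas in the DMSO arm it was the lowest in none for Ccl2 and Ccl7 and in 1 for Ccl3 and Ccl4.

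**Figure D4:**
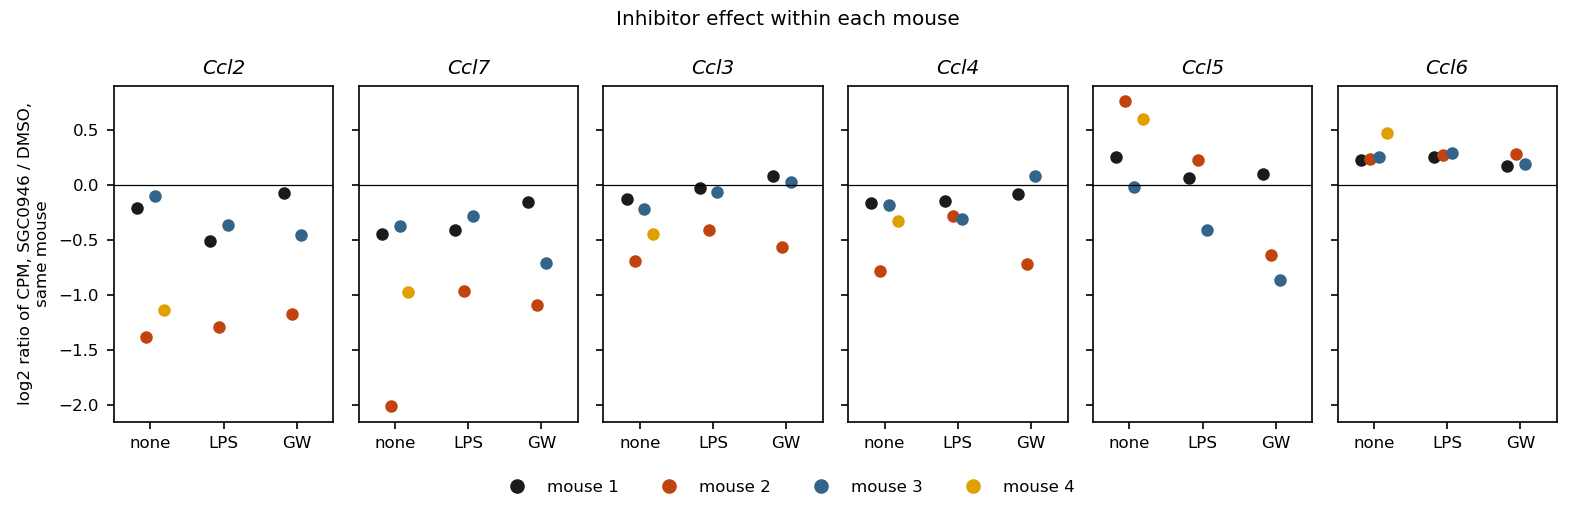
Log2 ratio of CPM, SGC0946 over DMSO in the same mouse, for 6 CC chemokines without stimulus, after LPS and after GW3965; each point is 1 mouse, coloured by animal. All Ccl2 and Ccl7 points lie below 0 with mouse 2 lowest, and all Ccl6 points lie above 0, between 0.168 and 0.469.

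Ccl3 and Ccl4, adjacent genes known as the macrophage inflammatory proteins, were lower with SGC0946 in every unstimulated library without passing the test. Ccl3 stood at 51.0, 34.4, 51.0 and 46.3 CPM in SGC0946 replicates 1 to 4, against 55.8, 55.6, 59.4 and 63.0 CPM in DMSO replicates 1 to 4. Its log2 fold change was -0.36 ± 0.13 (edgeR adjusted p = 0.0988), and with the mouse as a block it was -0.37 and passed (adjusted p = 0.0227). Ccl4 stood at 22.9, 16.3, 23.8 and 22.8 CPM with SGC0946, against 25.8, 28.1, 27.1 and 28.6 CPM with DMSO (-0.35 ± 0.16, edgeR adjusted p = 0.186). SGC0946 replicate 2 was the lowest library of both genes. After LPS Ccl3 differed by -0.16 ± 0.14 and Ccl4 by -0.24 ± 0.16, and after GW3965 by -0.12 ± 0.15 and -0.18 ± 0.18 (edgeR adjusted p = 0.569, 0.403, 0.763 and 0.690). Without a filter on low counts Ccl3 passed in unstimulated cells (-0.37, edgeR adjusted p = 0.0417).

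Ccl5 averaged 6.80 ± 0.935 CPM with SGC0946 and 5.16 ± 0.688 CPM with DMSO in unstimulated cells (SD, n = 4 each), a difference of 0.42 ± 0.17 (edgeR adjusted p = 0.137). After LPS it averaged 1553 ± 325 CPM with SGC0946 and 1570 ± 16.7 CPM with DMSO (SD, n = 3 each), a difference of -0.01 ± 0.12 (edgeR adjusted p = 0.969). The SGC0946+LPS libraries lay on both sides of the DMSO+LPS libraries, which differed little among themselves. After GW3965 it stood at 4.37, 3.02 and 3.42 CPM with SGC0946 and 4.09, 4.70 and 6.25 CPM with DMSO (-0.46 ± 0.23, edgeR adjusted p = 0.324).

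Ccl6 was higher with SGC0946 in all 3 states. In unstimulated cells it stood at 536, 528, 527 and 569 CPM in SGC0946 replicates 1 to 4, against 458, 448, 443 and 411 CPM in DMSO replicates 1 to 4. The lowest SGC0946 library lay above the highest DMSO library, and the log2 fold change was 0.30 ± 0.05, or 1.23-fold higher (edgeR adjusted p = 0.000275). After LPS it averaged 607 ± 4.69 CPM with SGC0946 and 504 ± 4.31 CPM with DMSO (SD, n = 3 each), 0.27 ± 0.05 higher (edgeR adjusted p = 0.00311). After GW3965 it stood at 448, 450 and 456 CPM with SGC0946 and 398, 371 and 399 CPM with DMSO, 0.21 ± 0.05 higher (edgeR adjusted p = 0.0269). The same-mouse log2 ratio was positive in 4 of 4, 3 of 3 and 3 of 3 mice in the 3 states, and ranged over 0.168 to 0.469. The calls in unstimulated and LPS cells held in every alternative run, and that after GW3965 was lost on leaving out any of its 6 libraries (0.18 to 0.23, adjusted p = 0.0540 to 0.150), without a filter (0.20, 0.0878), with only the compared groups in the model (0.22, 0.124) and without mouse 2 (0.18, 0.307).

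Ccl9, the neighbour of Ccl6 and likewise a ligand of CCR1, passed in none of the 3 states. It averaged 720 ± 58.6 CPM with SGC0946 and 682 ± 17.5 CPM with DMSO in unstimulated cells (SD, n = 4 each), a difference of 0.08 ± 0.06 (95% interval -0.06 to 0.21, edgeR adjusted p = 0.512). After LPS the difference was -0.08 ± 0.07 (-0.23 to 0.07) and after GW3965 0.09 ± 0.07 (-0.06 to 0.25). The last interval takes in the Ccl6 value of 0.21, and Ccl9 was not compared with Ccl6 by a test. In all 3 states the libraries of the arms overlapped.

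Ccl22 stood at 84.8, 67.6 and 142 CPM in SGC0946+LPS replicates 1 to 3 and at 68.6, 57.8 and 73.3 CPM in DMSO+LPS replicates 1 to 3. The groups overlapped, and the difference of 0.55 ± 0.24 did not pass (edgeR adjusted p = 0.178). It was higher with SGC0946 in all 3 mice after LPS, and with the mouse as a block the difference was 0.49 and passed (edgeR adjusted p = 0.0302). Without SGC0946+LPS replicate 3, the highest library, it was 0.19 (edgeR adjusted p = 0.712). The summed dendritic cell markers given above were also higher in SGC0946+LPS than in DMSO+LPS libraries. Of the 4 such markers tested, 0 were called in this comparison, and their median log2 fold change was 0.05. Their part in the difference of Ccl22 was not tested. Ccl24 differed by -0.34 ± 0.27 after LPS (edgeR adjusted p = 0.506). Without LPS neither gene held more than 15 reads in any library, and the 95% interval of the unstimulated difference of Ccl22 reached over -1.44 to 1.83, so smaller differences were not detectable at this depth.

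No member passed the test with the LXR agonist GW3965 in DMSO cells. There 2.55% of all genes were called (1.35% higher, 1.20% lower). At an unadjusted edgeR p under 0.05 stood 3 of 10 members (Ccl2, Ccl3 and Ccl6), beside 1976 of 12013 genes. DESeq2 called 1 member (Ccl6). Ccl6 stood at 398, 371 and 399 CPM in DMSO+GW3965 libraries, below every DMSO library (-0.18 ± 0.05, edgeR adjusted p = 0.0606). Ccl2 stood at 22.6, 28.5 and 41.8 CPM in DMSO+GW3965 libraries, above every DMSO library (0.77 ± 0.28, edgeR adjusted p = 0.158). With only the compared groups in the model Ccl2, Ccl3 and Ccl6 passed (0.76, 0.32 and -0.18; edgeR adjusted p = 0.0144, 0.00710 and 0.0457). In SGC0946 cells the difference of Ccl2 was 0.88 ± 0.31 (edgeR adjusted p = 0.170), and Ccl2 was higher with GW3965 in 3 of 3 mice of each arm.

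In SGC0946 cells GW3965 lowered Ccl6 and Ccl5 and raised Ccl3, 3 of 10 members against 2.42% of all genes (1.32% higher, 1.11% lower). Ccl6 stood at 448, 450 and 456 CPM in SGC0946+GW3965 libraries, below every SGC0946 library (-0.26 ± 0.05, edgeR adjusted p = 0.00498). Ccl5 stood at 4.37, 3.02 and 3.42 CPM in SGC0946+GW3965 libraries, also below every SGC0946 library (-0.92 ± 0.20, edgeR adjusted p = 0.0153). Ccl3 stood at 72.6, 47.6 and 81.4 CPM in SGC0946+GW3965 libraries, and the lowest of them overlapped the SGC0946 libraries (0.56 ± 0.14, edgeR adjusted p = 0.0392). All 3 calls were lost without the unstimulated libraries that stood apart (edgeR adjusted p = 0.0584 for Ccl6, 0.127 for Ccl5 and 0.250 for Ccl3) and with only the compared groups in the model (0.0777, 0.0594 and 0.266). Ccl3 also missed the threshold with library totals alone (0.0606) and without SGC0946 replicate 2 or 4 or SGC0946+GW3965 replicate 1 or 3 (0.0899 to 0.226), and Ccl5 without SGC0946 replicate 4, SGC0946+GW3965 replicate 2 or 3 (0.0564 to 0.0681) or mouse 2 (0.0749). The response to GW3965 differed between the arms for no gene of 12013 by edgeR (0.00%) or DESeq2, with 291 genes at an unadjusted p under 0.05. Ccl5 was the only member among those, with a difference of -0.87 ± 0.28 (95% interval -1.46 to -0.29, edgeR adjusted p = 1.00).

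Among the receptors of these ligands, Ccr1 was higher in unstimulated macrophages grown with SGC0946. Of 15 CC chemokine receptor genes listed 7 passed the filter, and 1 of them rose in unstimulated cells and none after LPS or GW3965, while none fell, against the 8.72%, 7.13% and 3.64% of all genes called. Ccr1, a receptor of Ccl3, Ccl5, Ccl6 and Ccl9, averaged 88.4 ± 11.6 CPM with SGC0946 and 60.7 ± 9.41 CPM with DMSO in unstimulated cells (SD, n = 4 each), 0.54 ± 0.13 higher (edgeR adjusted p = 0.00883; 0.0756 without the reanalyzed libraries). After LPS it averaged 175 ± 18.3 CPM with SGC0946 and 134 ± 21.8 CPM with DMSO (0.39 ± 0.14, edgeR adjusted p = 0.109; 0.00416 with the mouse as a block). After GW3965 it averaged 74.5 ± 10.9 CPM with SGC0946 and 55.8 ± 8.37 CPM with DMSO (0.41 ± 0.15, edgeR adjusted p = 0.141; 0.00615 with the block). Ccr2, the receptor of Ccl2, Ccl7 and Ccl12, averaged 30.7 ± 7.58 CPM with SGC0946 and 41.1 ± 7.46 CPM with DMSO in unstimulated cells (-0.41 ± 0.17, edgeR adjusted p = 0.134). Of the 50-base windows of Ccr2, 3.729% also occurred in another gene. Without the SGC0946 libraries that stood apart the difference of Ccr2 was -0.74 and passed (edgeR adjusted p = 0.0367). After LPS Ccr2 averaged 6.42 ± 0.586 CPM with SGC0946 and 11.97 ± 2.54 CPM with DMSO (SD, n = 3 each), without overlap (-0.88 ± 0.28, edgeR adjusted p = 0.0597). This difference passed with DESeq2 (adjusted p = 0.0114), without a filter (edgeR, 0.0168) and with only the compared groups in the model (edgeR, 0.0149). After GW3965 it averaged 21.2 ± 5.196 CPM with SGC0946 and 32.6 ± 5.59 CPM with DMSO (-0.61, edgeR adjusted p = 0.0988), and passed without a filter (edgeR, 0.0308) and without mouse 2 (-0.93, edgeR, 0.0393).

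LPS lowered Ccr2 in both arms while its ligands rose, with log2 fold changes of -2.25 ± 0.24 in SGC0946 and -1.78 ± 0.21 in DMSO cells. Ccrl2, an atypical receptor that does not signal through G proteins, rose by 5.86 ± 0.08 in SGC0946 and 6.02 ± 0.08 in DMSO cells. It averaged 801 ± 60.6 CPM in SGC0946+LPS and 850 ± 16.8 CPM in DMSO+LPS libraries, against 13.8 ± 1.40 CPM in SGC0946 and 13.1 ± 0.971 CPM in DMSO libraries. Ccr3, the receptor of Ccl24, rose by 2.56 ± 0.17 in each arm, and Ccr1 by 0.99 ± 0.13 in SGC0946 and 1.15 ± 0.13 in DMSO cells. Of the 7 receptors tested, 4 rose and 2 fell with LPS in SGC0946 cells, and 5 rose and 2 fell in DMSO cells, beside the shares of all genes given above. Ccr7 and Ccr9, with means of at most 1.80 CPM in any group, passed the filter only through LPS libraries and Ccr10 only through libraries without LPS, so the direction of these 3 was built into their passing. The edgeR adjusted p-values of Ccr2, Ccrl2, Ccr3 and Ccr1 were at most 7.02e-07 in either arm. With library totals alone the rise of Ccr1 in SGC0946 cells was 0.25 and missed the threshold (edgeR adjusted p = 0.0857).

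**Figure D5:**
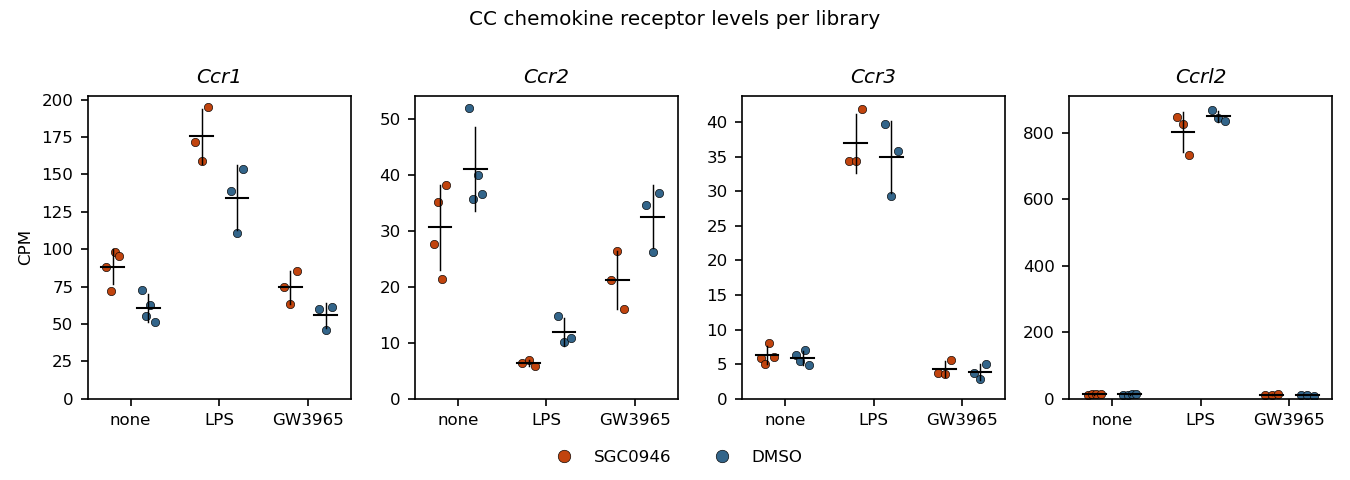
Level of 4 CC chemokine receptors in each library in CPM on linear axes, SGC0946 (orange, left) and DMSO (blue, right), without stimulus, with LPS and with GW3965; horizontal bars are means and vertical lines 1 SD. Ccr1 averages 88.4 CPM with SGC0946 and 60.7 CPM with DMSO without stimulus, Ccr2 is low after LPS, and Ccrl2 and Ccr3 are high after LPS.

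Of 11 other CC chemokine genes 3 passed the filter. Ccl8, another monocyte attractant, averaged 56.3 ± 5.34 CPM in SGC0946+LPS and 75.4 ± 2.21 CPM in DMSO+LPS libraries (SD, n = 3 each), a log2 fold change of -0.42 ± 0.12 (edgeR adjusted p = 0.0328). The call was lost on leaving out SGC0946+LPS replicate 1 or 3 or any DMSO+LPS replicate (adjusted p = 0.0534 to 0.133). Ccl17, which shares the receptor CCR4 with Ccl22 and passed the filter only through LPS libraries, had no read in any library without LPS and 57 reads over the SGC0946+LPS and 60 reads over the DMSO+LPS libraries. Ccl25 passed the filter and was called in no comparison.

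Of 36 listed genes of the TLR4 pathway upstream of these chemokines, all tested, none rose and 1 fell with SGC0946 in unstimulated cells, 1 rose and 2 fell after LPS, and none was called after GW3965, against 8.72%, 7.13% and 3.64% of all genes called. Nfkbia, the inhibitor of NF-kB, averaged 34.3 ± 2.20 CPM with SGC0946 and 40.8 ± 1.75 CPM with DMSO in unstimulated cells (-0.25 ± 0.07, edgeR adjusted p = 0.0213). After LPS Ticam1, which encodes TRIF, averaged 29.1 ± 3.07 CPM with SGC0946 and 39.2 ± 1.46 CPM with DMSO (-0.43 ± 0.09, edgeR adjusted p = 0.00519). Irak3, a brake on TLR signalling, differed by -0.34 ± 0.08 and Tlr4 by 0.25 ± 0.07 after LPS (edgeR adjusted p = 0.0171 and 0.0319). The calls of Nfkbia, Irak3 and Tlr4 were each lost on leaving out some single libraries, that of Nfkbia also without the reanalyzed libraries (-0.32, edgeR adjusted p = 0.224), and that of Tlr4 also without the libraries that stood apart (0.20, edgeR adjusted p = 0.121), without a filter (0.0606) and with only the compared groups in the model (0.0501). Without mouse 2 the calls of Ticam1, Irak3 and Tlr4 were lost (edgeR adjusted p = 0.0599, 0.0600 and 0.354). With LPS 29 of the 36 rose and 6 fell in SGC0946 cells, and 29 rose and 5 fell in DMSO cells, under TMM scaling and beside 35.8% and 35.4% of all genes rising; Ifnb1 passed the filter only through LPS libraries; with library totals alone the rise of Irak3 turned to -0.37 in SGC0946 and -0.14 in DMSO cells.

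In the interleukin pathway of alternative activation, listed for its known ties to Ccl17, Ccl22 and Ccl24, 11 of 13 genes were tested. Its part in the levels of these chemokines here was not tested. With SGC0946, 2 rose and 1 fell in unstimulated cells, 2 rose and 1 fell after LPS, and 1 fell after GW3965. Beside these counts, 8.72%, 7.13% and 3.64% of all genes were called. Chil3, a secreted chitinase-like protein of alternatively activated macrophages, was lower in all 3 states, with 1.81 ± 0.463 CPM with SGC0946 and 5.73 ± 0.668 CPM with DMSO in unstimulated cells (-1.64 ± 0.19, edgeR adjusted p = 9.35e-06). It had 17 to 35 reads per unstimulated SGC0946 library. The granulocyte markers given above fell in the same comparisons, and their part in this difference was not tested. Irf4, a factor of this pathway, was at 2.92 ± 0.759 CPM in SGC0946+LPS and 1.08 ± 0.215 CPM in DMSO+LPS cells (1.40 ± 0.26, edgeR adjusted p = 0.00181). This difference rests on few reads, 17 to 27 per SGC0946+LPS library and 6 to 11 per DMSO+LPS library. Il13ra1, a receptor chain for interleukin signals, was higher with SGC0946 in unstimulated cells (0.39 ± 0.10, edgeR adjusted p = 0.0171) and after LPS (0.47 ± 0.10, edgeR adjusted p = 0.00511). Klf4 was higher in unstimulated cells (0.41 ± 0.13, edgeR adjusted p = 0.043). The calls of Klf4 and of Il13ra1 in unstimulated cells were lost on leaving out some single libraries, without the reanalyzed libraries (0.24 for Klf4 and 0.51 for Il13ra1, edgeR adjusted p = 0.668 and 0.196), without the libraries that stood apart (0.55 and 0.22, edgeR adjusted p = 0.0546 and 0.380) and without mouse 2 (0.39 and 0.35, edgeR adjusted p = 0.109 and 0.113). That of Il13ra1 after LPS was lost without mouse 2 (0.41, edgeR adjusted p = 0.0848), and that of Chil3 after GW3965 with only the compared groups in the model (edgeR adjusted p = 0.0504).

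Likeness of pattern was measured over the 6 group means as the root mean square difference in log2 CPM after centring each gene. Within the family the most alike were Ccl3 and Ccl4 (0.285), then Ccl2 and Ccl4 (0.309), Ccl12 and Ccl22 (0.309) and Ccl2 and Ccl7 (0.383). The genes outside the family nearest to Ccl6 were Ecm1 (0.0348), Itgam (0.0483), which encodes an integrin chain and is among the macrophage markers, and Llph (0.0615), beside a range of 0.642 over the groups for Ccl6 itself. Nearest to Ccl9 were Klf6 (0.0237), Rap2c (0.0322) and Wdr59 (0.0437), and nearest to Ccl12 were Socs3 (0.0955), a feedback inhibitor of cytokine signalling, and the CXC chemokines Cxcl1 (0.109) and Cxcl2 (0.143). Ccl4 was nearest to Bcl2a1d (0.156), Tnfaip3 (0.160), which restrains NF-kB, and Sele (0.209), and Ccl22 to Fscn1 (0.101), Upp1 (0.148) and Heatr9 (0.167). These values share the same libraries and are a description only. Those of Ccl22 rest partly on the prior count, since it had at most 15 reads in any library without LPS.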

How the data were processed

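Per the submitters' processing notes, STAR 2.5.2b and SAMtools 1.3.1 were used with genome build mm10. The sources used here do not say how reads were assigned to transcripts or whether strand was used. The authors deposited raw read counts for 35745 RefSeq transcripts in 20 libraries, and a second deposited table holds the RPKM of the same transcripts. Transcripts were joined to symbols of RefSeq's gene table (305 had none, with 1.17% of counts), and the transcript with the highest total was kept for each of 24342 symbols (57.3% of counts).

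The quasi-likelihood F test of edgeR 4.0.16 (R 4.3.3) was run on the counts of all 20 libraries, with TMM scaling, a mean for each of the 6 groups and filterByExpr at a count minimum of 10, which left 12013 genes and all 10 members. A call means a Benjamini-Hochberg adjusted p under 0.05 over these genes. Each SE was obtained by dividing the absolute log2 fold change by √F, and the 95% interval is built from it with the t quantile for the test's degrees of freedom (20.7). TMM factors separated the LPS libraries from the others, so LPS folds depend on this scaling. The edgeR steps were tested on simulated counts with changes planted in the unstimulated SGC0946 group. Those counts held no likeness between libraries of a mouse and no LPS effect, so they do not test these features.

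The deposited sample table names the mouse of each library, and its number equals the replicate number in all 20. Deviations from group means correlated between libraries of the same mouse at 0.0608 to 0.501 (median 0.205, 46 pairs), and between other libraries at a median of -0.121, so the mouse was used as a block in an alternative fit. Other alternatives were DESeq2 1.42.0, other scalings, filters and transcripts, only the compared groups, and libraries left out. Libraries of a group differed beyond counting error (chi-square per gene 3.09 to 14.4).

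All 10 members are named, and other genes of the family and pathway where they passed the test in the comparison described, with the 3 nearest patterns for 5 members. Members, gene lists and tests were chosen with earlier results of these data known. A receptor and a marker on those lists are not reported here.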

Additional observations from a re-analysis of the deposited data

Results flagged for a closer look

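In SGC0946 cells without stimulus, the Ccl4 level of replicate 2, at 16.3 CPM, was far below that of the other 3 libraries (22.8 to 23.8 CPM): its gap to the nearest of them was 0.884 of the group's range. It was the only value of this kind among 20 groups checked, and chance gives about 1 in 20. The log2 fold change of Ccl4 against DMSO was -0.35 with this library and -0.24 without it, and passed the edgeR test in neither case (adjusted p = 0.186 and 0.474).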

How the results depend on the processing

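For the 10 members over 9 comparisons, 1597 of 1649 values under an alternative kept their side of the threshold without reversing a call. Another 33 lost a call, 17 gained one and 2 called values reversed. Values called in neither fit count as kept even where their sign changed, as for Ccl12 in unstimulated cells (-0.28 to 0.79). The reversals were those of Ccl6 with LPS under library totals alone (-0.57 in SGC0946 and -0.53 in DMSO cells); under the same scaling Irak3 turned to -0.37 and -0.14, and, in DMSO cells, Ticam1 to -0.64 and Chil3 to -0.20. That scaling shifts all LPS folds down, as the median of all genes shows. For SGC0946 against DMSO in unstimulated cells (1048 genes and 2 members called), the counts were 103 genes and 1 member without reanalyzed libraries, which left 1 DMSO library, 388 and 1 without the libraries that stood apart, 698 and 1 without mouse 2, and 578 to 1099 genes and 1 to 2 members on leaving out single replicates. After LPS (856 genes, 1 member) they were 432 genes without mouse 2 and 432 to 796 without single replicates. Members called were 3 under no filter, 2 with only the compared groups and 4 with the replicate block. The counts of all genes under those fits are not given here. After GW3965 (437 genes, 1 member) they were 164 genes and 0 members with only the compared groups, 173 and 0 without mouse 2, 703 genes with the replicate block, 0 members under no filter, and 232 to 454 genes and 0 members without single replicates. For GW3965 in SGC0946 cells (291 genes, 3 members) they were 88 genes and 0 members with only the compared groups, 131 and 0 without the libraries that stood apart, and 134 to 485 genes and 1 to 4 members without single replicates. For GW3965 in DMSO cells (306 genes, 0 members) they were 518 genes and 1 member with DESeq2, 888 and 3 with only the compared groups, 531 genes with the replicate block, 171 genes without mouse 2, 1 member with library totals alone, and 122 to 343 genes and 0 to 1 members without single replicates. For the difference in LPS response (1 gene, 0 members) they were 33 genes with DESeq2, 11 under no filter, 6 with the replicate block, 3 without the libraries that stood apart, 0 without mouse 2 and 1 to 11 without single replicates. The cause of these changes was not tested. Leaving out mouse 2 was chosen after seeing the data.

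The replicate block, which pairs libraries by mouse, added the calls of Ccl3 in unstimulated cells (-0.37) and of Ccl2 (-0.73), Ccl7 (-0.56) and Ccl22 (0.49) after LPS, and changed no other call of a member. Values for Ccl22 and Ccl24 could not be given where only groups without LPS were fitted. Their reads without LPS, at most 15 per library, limit what can be said of them.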
